A study of Mus musculus with 6 samples.

Results

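Marco, Stab1, Msr1, Mrc1, Cd36, Cd163, Cd68, Scarb1, Scarb2 and Colec12 are scavenger receptor genes or genes grouped with them, and they were read in RNA-Seq of cultured mouse cortical astrocytes. They were taken by gene name, 10 of the 55357 genes listed, and the set was put together around Marco and Stab1, which were selected on their measured difference between the cultures compared here. The values of the 10 genes are therefore a description. Their fold changes, errors and side of the threshold come from a fit across all genes, and for these genes they are no independent test. The study asked how an overactive BRAF, a kinase at the head of the MEK and ERK cascade, acts on astrocytes. KE cultures (n = 3) were transfected with a CMV-FLAG-BRAF KE plasmid, which carries the K499E mutation, and were harvested 48 hours later. NT cultures (n = 3) were nontransfected and naive by their titles and treatment labels, although the protocol text attached to all 6 samples mentions transfection. By the labels no culture here received an empty plasmid or BRAF WT, and the effects of transfection and of BRAF KE cannot be told apart. Per the methods, the astrocytes of both groups came from the cortices of C57BL/6 embryos on embryonic day 18. The CMV promoter is not restricted to astrocytes, and neither the labels nor the methods state that transfected cells were sorted. The labels number the cultures 1 to 3 in each group without saying whether they came from separate preparations, so the p-values below measure the spread between these cultures only, which may be technical.

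Scavenger receptors are membrane proteins that bind modified lipoproteins, bacteria, dying cells and other debris, and most of them carry their cargo into endosomes and lysosomes. Macrophages are the cells best known for them, and in the brain microglia and the macrophages of the meninges and vessels carry several, while some class B receptors are found in many cell types. They are grouped by structure rather than by descent: class A receptors are trimers with a collagen-like stalk, class B receptors cross the membrane at both ends and belong to the CD36 family, stabilins have rows of fasciclin and EGF-like domains, the mannose receptor has rows of lectin domains, CD163 is built of scavenger receptor cysteine-rich domains, and CD68 is a mucin-like relative of the lysosomal LAMP proteins.

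The normalized counts summed to between 30472429 and 30895529 per culture, and the approximate depth lay between 24500000 reads in KE replicate 2 and 34100000 in KE replicate 1. Braf, whose KE form was transfected, was read at 925.3, 810.5 and 946.3 normalized counts in NT and at 35025, 34933 and 40978 in KE, so the labels held in all 6 cultures. With limma and Benjamini-Hochberg adjustment over 15280 tested genes, 26.0% of genes were called lower and 25.3% higher in KE (adjusted p under 0.05). In 29.9% of genes all KE cultures lay below all NT cultures, and in 30.1% all lay above. Of the 10 receptor genes, 9 passed the filter on low values and entered this fit. There, 7 lay past the threshold on the lower side (Marco, Stab1, Msr1, Mrc1, Cd36, Cd68 and Colec12), 1 on the higher side (Scarb2) and 1 not past it (Scarb1). A call of lower with a log2FC larger than 1.5 in size was made for 3.44% of all tested genes and for the same 7 receptors. The set was selected on this contrast, so nothing is read from these counts or from their share beside that of all genes. The median log2FC of the 9 was -3.25, with a range of -6.90 to 0.54, and that of all tested genes was 0.00.

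Marco, Msr1 and Colec12, the collagen-like class A receptors of the set, were all far lower in the KE cultures. Marco, a receptor that binds bacteria and unopsonized particles, lies at chr1:120402267-120432753 (GRCm39, minus strand; ENSMUSG00000026390). Its normalized counts were 2965, 3078 and 1380 in NT, a mean of 2474 ± 949.7 (SD, n = 3), and 16.03, 24.66 and 16.07 in KE, a mean of 18.9 ± 4.97 (SD, n = 3). The groups did not overlap, NT replicate 3 held less than either other NT culture, and each KE value rested on about 18 to 20 reads. The log2FC of -6.90 (SE 0.28) was the lowest of all 15280 tested genes, and the NT mean was 131-fold the KE mean. The 250 bases before its RefSeq start, chr1:120432754-120433003 on the minus strand of GRCm39, are shown because this gene had the widest difference. Capitals mark the only match, on either strand, to 4 short motifs described further on, here GAGGAA.
Marco: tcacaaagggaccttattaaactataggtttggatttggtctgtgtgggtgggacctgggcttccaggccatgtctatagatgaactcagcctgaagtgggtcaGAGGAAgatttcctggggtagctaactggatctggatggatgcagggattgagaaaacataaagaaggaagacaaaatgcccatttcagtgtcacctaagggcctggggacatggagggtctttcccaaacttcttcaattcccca

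Msr1 encodes the founding class A receptor, which takes up acetylated and oxidized low-density lipoprotein, and lies at chr8:40034726-40095714 (minus strand; ENSMUSG00000025044). Its normalized counts were 3512, 2955 and 2529 in NT and 202.7, 172.0 and 149.6 in KE. All NT cultures were above all KE cultures, the means were 2999 ± 493.4 and 174.7 ± 26.6 (SD, n = 3 each), and the log2FC was -4.09 (SE 0.13), a 17.2-fold lower level. Colec12, also known as SRCL, joins a collagen-like stalk to a C-type lectin domain and differs from the other members of its class in being best known from endothelium (ENSMUSG00000036103). Colec12 stood at 1675, 1480 and 1420 in NT and at 168.4, 227.7 and 175.6 in KE, with means of 1525 ± 133.7 and 190.6 ± 32.3 (SD, n = 3 each). Again no KE culture reached the NT range, and the log2FC was -3.00 (SE 0.12).

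Stab1 was 26.1-fold and Mrc1 26.8-fold lower in KE, while Cd163 was hardly detected in either group. Stab1 encodes stabilin-1, an endocytic receptor of alternatively activated macrophages and sinusoidal endothelium that takes up the matrix protein SPARC and acetylated low-density lipoprotein, and lies at chr14:30860970-30890598 (minus strand; ENSMUSG00000042286). Its normalized counts were 5007, 5130 and 5013 in NT, the narrowest spread of the receptors that were lower in KE, and 139.7, 277.5 and 162.4 in KE. The means were 5050 ± 69.5 and 193.2 ± 73.9 (SD, n = 3 each), the log2FC was -4.77 (SE 0.19), the eighth lowest of all tested genes, and KE replicate 2 stood at 1.99 times the lowest KE culture. The 250 bases before its RefSeq start, chr14:30890599-30890848 on the minus strand, are shown for comparison with Marco, and hold 1 motif match, again GAGGAA, in capitals.
Stab1: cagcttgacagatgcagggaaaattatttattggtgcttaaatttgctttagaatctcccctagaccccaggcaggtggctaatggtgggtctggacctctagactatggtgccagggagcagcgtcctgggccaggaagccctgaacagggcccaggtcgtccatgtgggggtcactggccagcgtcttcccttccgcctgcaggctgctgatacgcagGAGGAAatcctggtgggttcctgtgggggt

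Mrc1 encodes the mannose receptor CD206, which binds mannose-ending glycans on microbes and on the body's own glycoproteins, and lies at chr2:14234151-14336926 (plus strand; ENSMUSG00000026712). It stood at 537.4, 401.2 and 521.4 in NT and at 18.9, 17.5 and 18.1 in KE, values that rest on 14 to 21 reads in each KE library. The means were 486.7 ± 74.4 and 18.2 ± 0.746 (SD, n = 3 each), and the log2FC was -4.66 (SE 0.17). The KE values lay close together, although so few reads limit the precision of each. Cd163, the receptor for haptoglobin-haemoglobin complexes, lies at chr6:124281606-124307560 (plus strand; ENSMUSG00000008845). It was listed at 0.773, 0 and 0 in NT and at 1.16, 0 and 0 in KE, which is at most about 1 read in any KE library. Cd163 failed the mean of 10 required for testing, and no fold change is given.

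The class B receptors, which share 1 fold, went different ways: Cd36 was far lower in KE, Scarb1 differed little and Scarb2 was higher. Cd36, a receptor for long-chain fatty acids, oxidized lipoproteins and thrombospondin, lies at chr5:17986432-18094067 (minus strand; ENSMUSG00000002944). Its normalized counts were 227.7, 359.9 and 117.5 in NT and 27.7, 14.0 and 25.5 in KE. In NT it was the most variable of the tested receptors by the SD of log2 values. The groups still did not overlap, with means of 235.0 ± 121.3 and 22.4 ± 7.36 (SD, n = 3 each), and the log2FC of -3.25 had the widest standard error of the set, 0.37. Scarb1 encodes SR-BI, which takes cholesteryl ester from high-density lipoprotein, and lies at chr5:125353547-125418176 (minus strand; ENSMUSG00000037936). It was read at 1706, 1830 and 1889 in NT and at 1643, 1654 and 1624 in KE, means of 1808 ± 93.4 and 1640 ± 15.5 (SD, n = 3 each). Every KE culture was below every NT culture, yet the log2FC was -0.14 (SE 0.06) and the gene was not called.

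Scarb2 encodes LIMP-2, a protein that stays in the lysosomal membrane, and lies at chr5:92589169-92654692 (minus strand; ENSMUSG00000029426). It was the 1 receptor of the set that was higher in KE, with 8014, 7825 and 8203 normalized counts against 5548, 5405 and 5611 in NT. The groups were 8014 ± 188.7 and 5521 ± 105.9 (SD, n = 3 each), did not overlap and differed by a log2FC of 0.54 (SE 0.05), a 1.45-fold higher level. The 250 bases before its RefSeq start, chr5:92653517-92653766 on the minus strand, are shown as the contrast to Marco and Stab1. In capitals is the single match of the stretch, to GGGCGG read on the opposite strand.
Scarb2: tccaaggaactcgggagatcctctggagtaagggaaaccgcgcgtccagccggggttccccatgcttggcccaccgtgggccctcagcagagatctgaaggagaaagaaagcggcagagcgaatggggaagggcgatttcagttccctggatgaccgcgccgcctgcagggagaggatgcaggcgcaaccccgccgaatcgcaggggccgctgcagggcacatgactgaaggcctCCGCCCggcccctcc

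Cd68, a glycoprotein of late endosomes and lysosomes that is widely used to stain macrophages, was lower in KE by the smallest factor among the 7. It lies at chr11:69555037-69557067 (minus strand; ENSMUSG00000018774). The NT cultures held 2647, 3045 and 2177 normalized counts and the KE cultures 381.1, 458.8 and 375.6, with means of 2623 ± 434.4 and 405.2 ± 46.5 (SD, n = 3 each). The lowest NT culture was well above the highest KE culture, and the log2FC was -2.68 (SE 0.12), 6.47-fold.

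**Figure D1:**
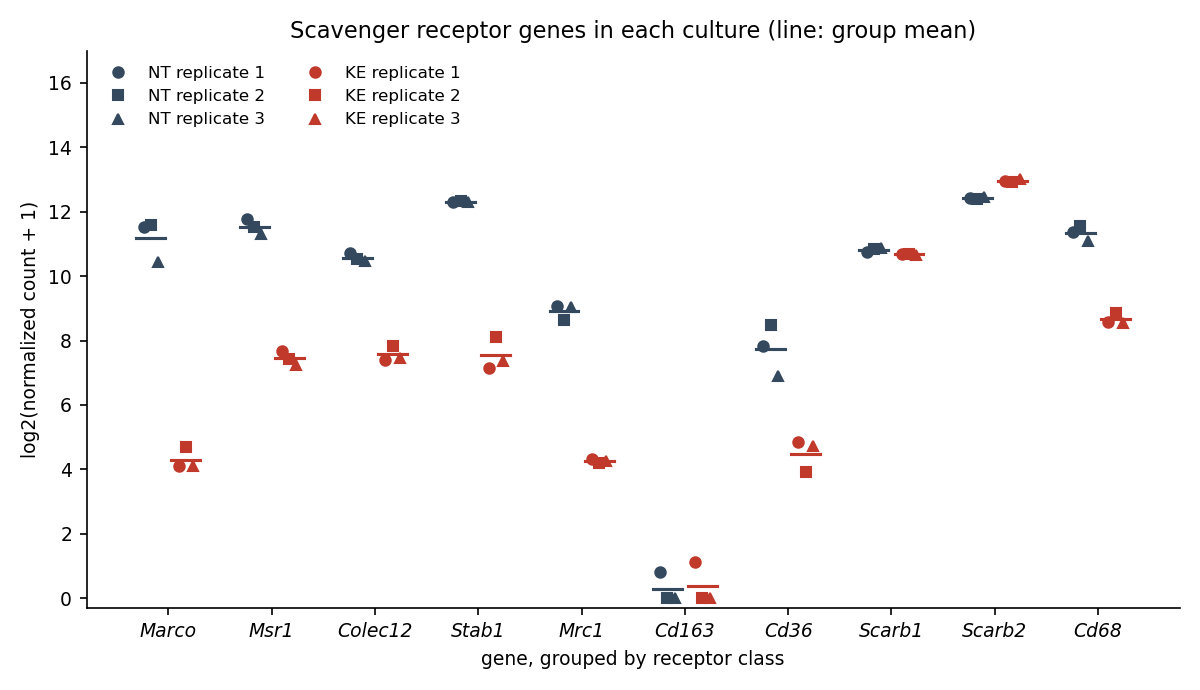
Normalized counts of the 10 receptor genes in each of the 3 NT and 3 KE cultures, as log2(normalized count + 1), with a line at each group mean and a symbol for each replicate number. Marco, Msr1, Colec12, Stab1, Mrc1, Cd36 and Cd68 are far lower in all KE cultures, Scarb1 is slightly lower and Scarb2 higher in all KE cultures, and Cd163 is near 0.

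**Figure D2:**
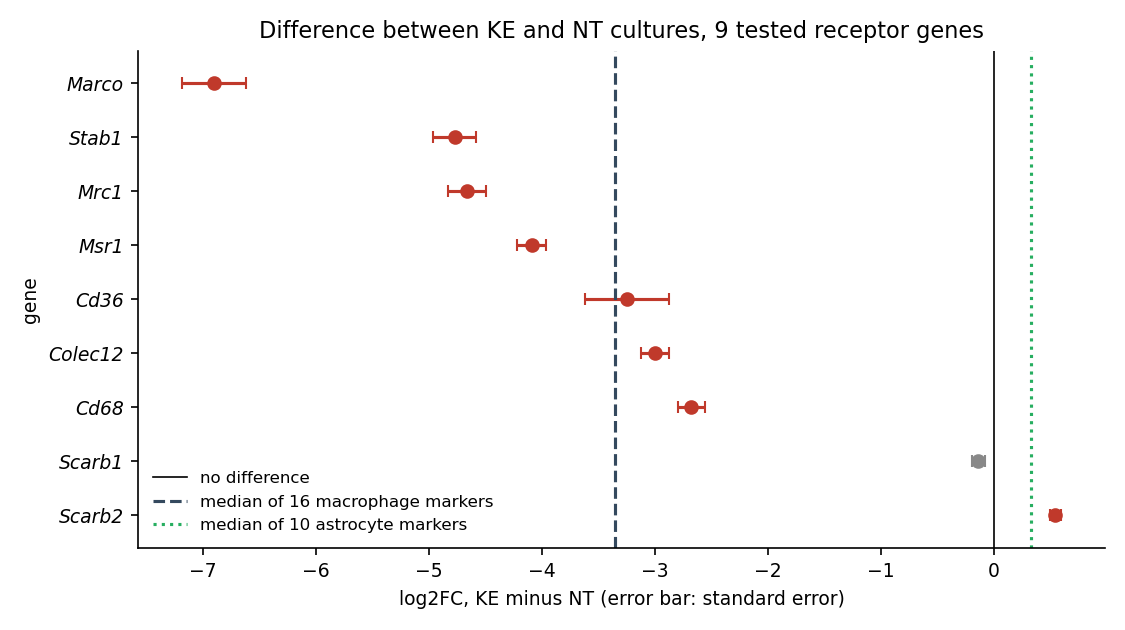
The log2FC (KE minus NT) of the 9 tested receptor genes with its standard error, grey where the gene was not called, beside lines at 0, at the median of 16 microglia and macrophage markers (-3.35) and at the median of 10 astrocyte markers (0.33). Marco, Stab1, Mrc1 and Msr1 lie to the left of the macrophage median, and Scarb2 to the right of the astrocyte median.

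The receptors also differed in how far replicate cultures lay apart. In NT, the SD of log2 values was 0.81 for Cd36 and 0.65 for Marco, at the 98.4th and 97.1th percentile of all tested genes, and 0.02 for Stab1 and 0.03 for Scarb2, at the 3.4th and 6.7th percentile. Msr1, Mrc1 and Cd68 lay between them at 0.23 to 0.24. The NT cultures thus spanned 3.06-fold for Cd36 and 2.23-fold for Marco, but 1.02-fold for Stab1, although all 3 genes were lower in KE. NT replicate 3 held the lowest value for 5 of the 7 lower receptors (Marco, Msr1, Cd36, Cd68 and Colec12), and it also had the lowest sum of the macrophage markers described next. In KE, replicate 2 held the highest value for 4 of the 7 (Marco, Stab1, Cd68 and Colec12) and the highest sum of those markers. It held the lowest value for Cd36 and for Mrc1. Without NT replicate 3 the log2FC was -7.27 for Marco and -3.67 for Cd36, and without KE replicate 2 it was -5.06 for Stab1.

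Per the methods, culture dishes were shaken for some hours and the attached cells replated, a step that commonly serves to remove loosely attached cells such as microglia. The labelled cell type was checked against its markers. Of 11 astrocyte genes, 10 were tested, Gfap, Slc1a3 and Aldh1l1 among the most abundant, while Gjb6 was near 0 in every culture. Their sum was 109517 to 114729 in NT and 150288 to 152753 in KE, with 6 called higher and 2 lower (1 to 2 lower when a culture was left out), beside 25.3% and 26.0% of all genes. Markers of microglia and macrophages were present as well. All 16 were called lower in KE, beside 26.0% of all genes, none was at 0, and their log2FC ran from -4.07 to -0.88. Their summed level was 49111 to 58178 in NT and 5733 to 8095 in KE, 8.43-fold lower. Itgam, the CD11b integrin, fell from 7191 ± 530.4 to 433.7 ± 95.1 (SD, n = 3 each, log2FC -4.07, limma adjusted p = 4.3e-09), and the complement gene C1qa from 6984 ± 543.4 to 829.4 ± 293.0 (log2FC -3.12, limma adjusted p = 1.7e-07). Whether these bulk cultures held fewer such cells or less of this RNA per cell cannot be told apart, and the part of the markers in the receptor values was not tested.

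Border-associated macrophages are the cells of meninges and vessel walls in which Mrc1, Cd163 and Stab1 are known. Of 8 markers, 5 were tested and 4 called lower (3 to 4 when a culture was left out), beside 26.0% of all genes. Among those lower were Pf4 (log2FC -4.43), Siglec1 (log2FC -3.48) and Ms4a7 (log2FC -3.13). F13a1, named after its values were seen, was not called (log2FC -0.18). Lyve1, Folr2 and Clec10a, which also define these cells, were too low to test, and the summed level was 4008 to 4593 in NT and 414.5 to 561.8 in KE. Endothelial markers were read because Cd36, Scarb1, Stab1 and Colec12 are also known from endothelium. Of 10, only 4 were tested and 2 called lower (1 without NT replicate 1 or 2), beside 26.0% of all genes, Cldn5 was at 0 in all KE cultures and in 2 of the NT cultures, Cdh5 stayed below 6 normalized counts, and the sum was 439.8 to 542.2 in NT and 298.7 to 336.9 in KE. Most of that sum was Flt1, a receptor for vascular growth factor, which had a log2FC of -0.62, and Pecam1, also called lower, had a log2FC of -0.86. The part of these markers in the receptor values was not tested. Sums for fibroblasts and pericytes (2514 to 2822 in NT, 2591 to 2802 in KE) and for neurons (1360 to 1819 and 1454 to 1563) overlapped between groups. The oligodendrocyte lineage sum was 33469 to 33754 in NT and 25604 to 30128 in KE. Of its 6 markers, 5 were tested and all 5 called lower (3 to 5 when a culture was left out), beside 26.0% of all genes. Their log2FC ran from -1.89 to -0.20.

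Set against the summed macrophage markers of the same culture, the receptors fell into several kinds, described here without a test. Marco was 5.10%, 5.33% and 2.81% of that sum in NT and 0.28%, 0.305% and 0.28% in KE, means of 4.41% ± 1.39 and 0.288% ± 0.0144 (SD, n = 3 each), so it was 15.3-fold lower even on this scale. Stab1 was 9.23% ± 0.855 in NT and 2.90% ± 0.499 in KE (3.19-fold), Mrc1 0.894% ± 0.185 and 0.287% ± 0.0622 (3.11-fold), and Msr1 5.44% ± 0.521 and 2.75% ± 0.717 (1.97-fold), with n = 3 each and no overlap between groups. The log2FC of each of these 4 was below that of all 16 markers of this list, for Msr1 (-4.09, SE 0.13) by less than its error from Itgam (-4.07, SE 0.12). Macrophage genes outside the list, such as Lyz2 (-4.66), fell further than Msr1. Clec4n (-5.05), also outside the list, fell further than Stab1 (-4.77) and Mrc1 (-4.66).

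On the same scale the groups overlapped for Colec12 and Cd36. Colec12 was 2.88%, 2.57% and 2.89% of the sum in NT and 2.94%, 2.81% and 3.06% in KE, so the 6 cultures lay within a narrow band while the gene itself differed 8.0-fold. Cd36 was 0.418% ± 0.194 in NT and 0.367% ± 0.169 in KE (SD, n = 3 each), with a wide spread, and KE replicate 2, which had the highest marker sum, had the lowest Cd36. Cd68 was 4.55%, 5.28% and 4.43% in NT and 6.65%, 5.67% and 6.54% in KE, so that each KE culture lay above each NT culture and the relation was 1.32-fold higher in KE, although the gene was lower. Of the 16 markers, 13 had a lower log2FC than Cd68 and 13 a lower one than Colec12. Scarb1 and Scarb2 did not share the large fall of the markers: Scarb1 was slightly lower (log2FC -0.14) and Scarb2 higher (log2FC 0.54) in KE. Their ratios to the sum were 7.78-fold and 12.5-fold higher in KE, largely because the sum itself was 8.43-fold lower.

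**Figure D3:**
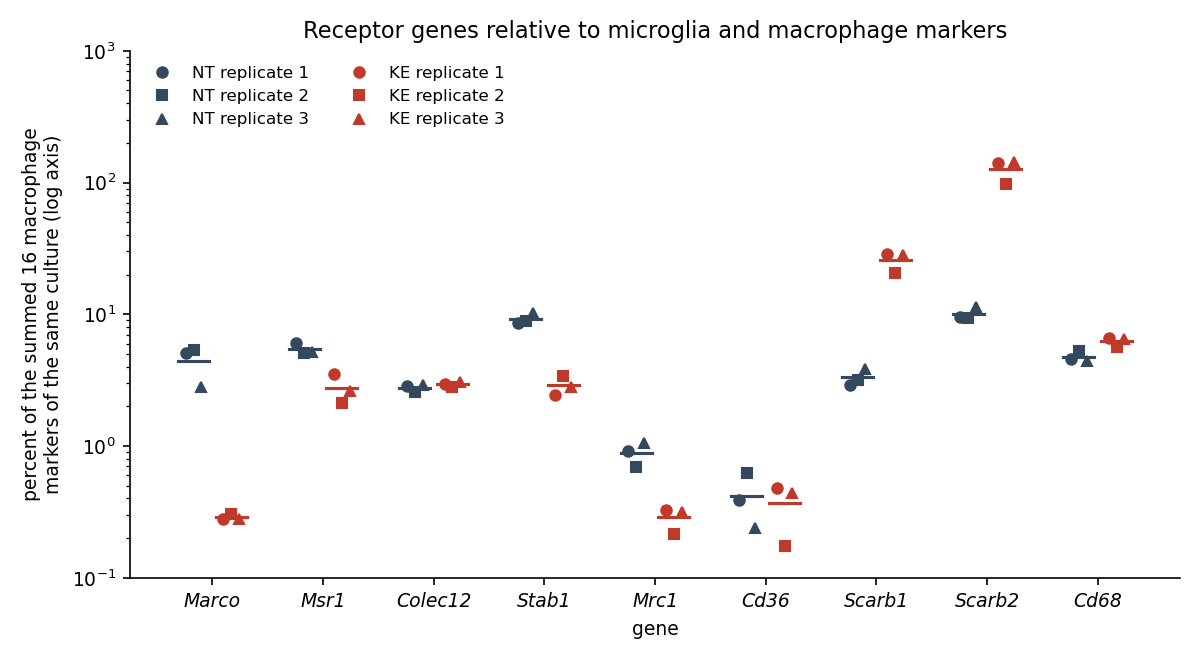
Each tested receptor gene as a percent of the summed 16 microglia and macrophage markers of the same culture, on a log axis, for 3 NT and 3 KE cultures with a line at each group mean. Marco, Msr1, Stab1 and Mrc1 lie lower in KE, Colec12 and Cd36 overlap, and Cd68, Scarb1 and Scarb2 lie higher in KE.

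Levels between genes were compared per kilobase of the Ensembl canonical transcript. In NT the order was Cd68 (2190 ± 362.6 normalized counts per kilobase), Msr1 (2106 ± 346.5), Marco (1285 ± 493.4), Scarb2 (1175 ± 22.5), Scarb1 (712.2 ± 36.8), Stab1 (631.3 ± 8.69), Colec12 (190.1 ± 16.7), Mrc1 (88.8 ± 13.6), Cd36 (67.1 ± 34.6) and Cd163 (SD, n = 3 each). Neighbours whose cultures overlapped were Cd68 and Msr1, Marco and Scarb2, and Mrc1 and Cd36. In KE the order was Scarb2 (1706 ± 40.2), Scarb1 (646.1 ± 6.10), Cd68 (338.2 ± 38.8), Msr1 (122.7 ± 18.7), Stab1 (24.2 ± 9.24), Colec12 (23.8 ± 4.03), Marco (9.83 ± 2.58), Cd36 (6.39 ± 2.10), Mrc1 (3.31 ± 0.136) and Cd163 (SD, n = 3 each), and only Stab1 and Colec12 overlapped. Marco moved from the third place to the seventh, and the lysosomal Scarb2 from the fourth to the first. The order depends on the length used. Per kilobase of all merged exons, Msr1 stood in the fifth place in NT rather than the second, and Scarb1 also moved down. Marco, Scarb2 and Stab1 each moved up, while Cd68 remained first and Colec12, Mrc1, Cd36 and Cd163 kept the last 4 places. In KE, merged exons put Cd68 (mean 296) above Scarb1 (158.6) and Mrc1 (2.319) above Cd36 (1.774).

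The structural classes could be read from the proteins that the canonical transcripts of Gencode vM39 encode. Unbroken Gly-X-Y triplets, the repeat of a collagen helix, ran for 81 triplets in Marco (residues 177 to 419 of 518), 49 in Colec12 (443 to 589 of 742) and 25 in Msr1 (277 to 351 of 458), and for at most 3 in any other member. These 3 collagen-like receptors were all lower in KE, by log2FC from -6.90 to -3.00. Cd36, Scarb1 and Scarb2 were alike over nearly their whole length, with 33.4% identity between Cd36 and Scarb2 over 458 aligned residues, 31.7% between Cd36 and Scarb1 over 458 and 32.6% between Scarb1 and Scarb2 over 472. Yet their log2FC values were -3.25, -0.14 and 0.54. Marco and Msr1 each resembled Cd163 over a short stretch, 40.0% of 135 and 35.5% of 141 aligned residues, and all 3 have scavenger receptor cysteine-rich domains. Cysteines numbered 204 among the 2571 residues of Stab1, 74 of 1121 in Cd163 and 52 of 1456 in Mrc1, against 8 to 10 in each of the other members, and Cd68 had the highest share of serine and threonine (21.7%).

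The 250 bases before the RefSeq start were compared for the 7 members present in the promoter table (Marco, Stab1, Mrc1, Cd36, Cd163, Cd68 and Scarb2). Msr1, Scarb1 and Colec12 were not among them. Each stretch was searched on both strands for GAGGAA, a core bound by the macrophage factor PU.1, TGANTCA, an AP-1 site, CACGTG, an E-box bound by TFEB and other factors, and GGGCGG, an Sp1 site. GAGGAA was present in Marco (146 bases before the start), Stab1 (30 bases), Mrc1 (180, 167 and 35 bases) and Cd68 (225 bases), 4 of the 7 members, and in 23.3% of 32851 promoters of the same length. Cd36, which was also lower in KE, and Scarb2 and Cd163 lacked these letters in this window. GGGCGG was present in Mrc1, Cd36, Scarb2 and Cd68, 4 of 7, and in 32.7% of all promoters, TGANTCA in Cd68 only, at 149 and 24 bases, and in 6.7% of all, and CACGTG in none of the 7 and in 6.0% of all. The GC content was 65.6% for Scarb2 and 57.2% for Stab1, 36.8% to 49.6% for the others, and 52.4% in the median of all promoters. For Marco and Stab1 the RefSeq start was that of the canonical transcript, while it lay 20 bases from it for Scarb2 and 14002 bases from it for Cd36. Matches in 7 promoters are a description of the letters, not of binding.

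Other scavenger receptors, a list of 16 genes from general knowledge without the 10 members, were read in the same fit. Of the 12 tested, 4 were called higher, 4 lower and 4 neither, beside 25.3% higher and 26.0% lower of all genes, and the median log2FC was 0.10. Leaving out single cultures moved that median between -0.06 and 0.14, and testing low genes as well gave -0.25, so that its sign depended on the setting. Clec7a, the beta-glucan receptor dectin-1, fell from 1183 ± 87.9 to 99.8 ± 35.7 normalized counts (SD, n = 3 each, log2FC -3.61, limma adjusted p = 1.7e-07). Olr1, the oxidized lipoprotein receptor LOX-1, was low throughout and fell from 30.3 ± 4.99 to 8.30 ± 3.00 (log2FC -1.80, limma adjusted p = 0.0017). Cd44, the hyaluronan receptor, rose from 14313 ± 202.3 to 23857 ± 1609 (log2FC 0.74, limma adjusted p = 2.5e-06), and the scarce Scarf1, an endothelial class F receptor, from 6.98 ± 2.89 to 18.2 ± 5.48 (log2FC 1.30, limma adjusted p = 0.026). Stab2, the nearest relative of Stab1, was too low to test and was named after its values were seen. It stood at 1.08, 2.25 and 19.1 in NT and at 3.21, 0.680 and 3.17 in KE. Scara3 and Scara5, also named after their values were seen, are class A receptors outside the set. Scara3 rose from 971.8 ± 66.4 to 1353 ± 93.0 (SD, n = 3 each, log2FC 0.48, limma adjusted p = 0.00044), and Scara5 was not called (log2FC 0.32).

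Relatives of Cd163 and Marco with scavenger receptor cysteine-rich domains and of the mannose receptor form another list. Among 13 genes, 10 were tested, with 4 higher and 3 lower, beside 25.3% and 26.0% of all genes. The number lower was 2 to 3 when a culture was left out. The median log2FC was 0.26, and 0.08 when low genes were tested as well. Cd5l, a secreted macrophage protein, fell from 32.4 ± 11.0 to 2.34 ± 0.471 (SD, n = 3 each, log2FC -3.27, limma adjusted p = 7.6e-05), and the collagen receptor Mrc2 from 358.8 ± 18.8 to 193.3 ± 47.3 (log2FC -0.91, limma adjusted p = 0.0006). Lgals3bp, a secreted glycoprotein that binds galectins, rose from 7116 ± 1078 to 18750 ± 907.6 (log2FC 1.41, limma adjusted p = 5.9e-07), and the lysyl oxidase Loxl4 from 18.9 ± 8.50 to 41.2 ± 1.21 (log2FC 1.16, limma adjusted p = 0.0097).

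Receptors that clear dying cells work beside Cd36, Stab1 and Cd68 in phagocytes. The list of 20 genes read here holds such receptors and other genes of this uptake or its restraint. Of the 20, 18 were tested, 10 were called lower and 2 higher (beside 26.0% and 25.3% of all genes), and the median log2FC was -0.17. Without a single culture the number lower was 7 to 8. Havcr2, the TIM-3 receptor, fell from 484.5 ± 28.3 to 65.0 ± 13.4 (SD, n = 3 each, log2FC -2.90, limma adjusted p = 9.8e-08), and the engulfment adaptor Elmo1 from 629.5 ± 188.5 to 128.0 ± 15.3 (log2FC -2.25, limma adjusted p = 4.8e-06). Both are expressed in microglia. The receptor kinase Axl rose from 4304 ± 327.9 to 5953 ± 341.9 (log2FC 0.47, limma adjusted p = 0.00021), and Cd47, which restrains engulfment rather than serving it, from 2572 ± 169.4 to 5309 ± 347.7 (log2FC 1.05, limma adjusted p = 4.5e-07).

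A further list holds genes that handle the lipid taken up by Cd36, Msr1 and Scarb1. All 18 were tested, with 6 higher and 7 lower, beside 25.3% and 26.0% of all genes. When a culture was left out, 4 to 6 were higher and 5 to 7 lower. The median log2FC was 0.09. Lipoprotein lipase, Lpl, fell from 2248 ± 197.1 to 837.1 ± 64.1 (SD, n = 3 each, log2FC -1.42, limma adjusted p = 1.8e-07), and the fatty acid carrier Fabp5 from 6855 ± 510.8 to 2765 ± 424.7 (log2FC -1.32, limma adjusted p = 1.6e-06). The receptor Vldlr rose from 1523 ± 30.1 to 3510 ± 66.4 (log2FC 1.20, limma adjusted p = 3.2e-08), and the cholesteryl ester hydrolase Nceh1 from 2032 ± 105.9 to 2692 ± 135.7 (log2FC 0.41, limma adjusted p = 0.00035).

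Of 11 lysosomal partners of Scarb2, all tested, limma called 7 higher (6 with quantile normalization), 4 neither and 0 lower. Of all genes, 25.3% were called higher and 26.0% lower. Under every alternative setting 0 partners were lower as well. Their log2FC values ran from 0.08 to 0.94 around a median of 0.32. Lamp2, a major protein of the lysosomal membrane, stood at 12756, 11551 and 11201 in NT and at 17599, 16035 and 16862 in KE. It rose from a mean of 11836 ± 816.1 to 16832 ± 782.7 (SD, n = 3 each, log2FC 0.51, limma adjusted p = 6.7e-05), beside 0.54 for Scarb2.

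In haem handling, the pathway downstream of Cd163, 4 of 10 genes were called higher and 4 lower, beside 25.3% and 26.0% of all genes, with a median log2FC of -0.08. Hmox1, haem oxygenase-1, rose from 8963 ± 531.2 to 18570 ± 662.6 (SD, n = 3 each, log2FC 1.05, limma adjusted p = 1.7e-07), and the biliverdin reductase Blvrb from 850.6 ± 119.6 to 1355 ± 180.0 (log2FC 0.67, limma adjusted p = 0.00062), although Cd163 itself was hardly detected. The iron exporter Slc40a1 fell from 63.3 ± 2.77 to 9.65 ± 3.71 (log2FC -2.65, limma adjusted p = 3.4e-05), and haptoglobin, Hp, from 152.6 ± 24.4 to 76.9 ± 0.897 (log2FC -0.97, limma adjusted p = 0.00045).

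Transcription factors known to act on macrophage genes were called in all 8 cases, 6 lower and 2 higher, beside 26.0% and 25.3% of all genes, with a median log2FC of -0.74. Spi1, which encodes PU.1, fell from 830.0 ± 208.5 to 65.9 ± 27.5 (SD, n = 3 each, log2FC -3.69, limma adjusted p = 9.9e-07), and Irf8 from 664.5 ± 55.9 to 96.2 ± 16.2 (log2FC -2.78, limma adjusted p = 5.2e-08), both factors of the macrophage lineage. Cebpb, which is broadly expressed, rose from 616.6 ± 16.7 to 937.1 ± 64.7 (log2FC 0.60, limma adjusted p = 8.2e-05), and Nfe2l2, the stress factor NRF2, from 8761 ± 56.3 to 11385 ± 272.1 (log2FC 0.38, limma adjusted p = 9.5e-05).

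**Figure D4:**
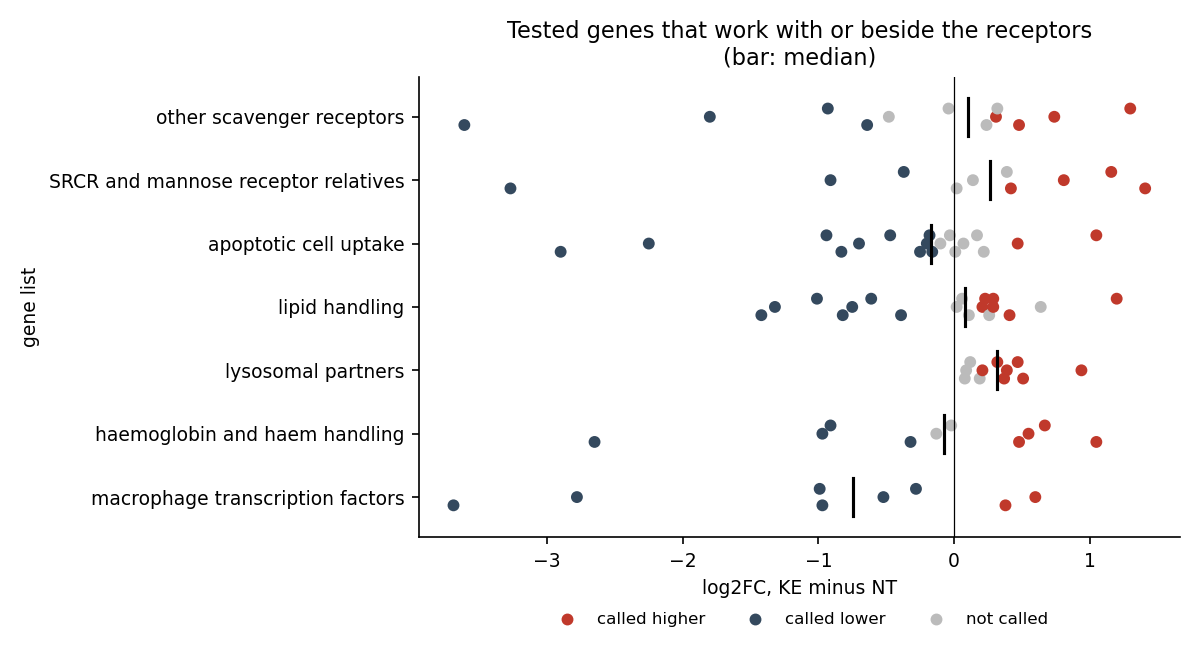
The log2FC (KE minus NT) of each tested gene in 7 lists of genes that work with or beside the receptors, colored by its limma call, with a bar at each list's median. Medians run from -0.74 for macrophage transcription factors to 0.32 for lysosomal partners. No lysosomal partner was called lower, beside 26.0% of all genes.

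The genes whose centred log2 profile over the 6 cultures lay nearest to that of Marco, among 12072 genes with a mean of at least 100, were Clec4n (Euclidean distance 2.58), Stab1 (2.78), Lyz2 (2.89), Mrc1 (3.01) and C5ar1 (3.12). All were several units away, since no other gene fell as far. Stab1 had closer neighbours: Lyz2 (0.32), C5ar1 (0.59), Tlr8 (0.78), Pf4 (0.84) and Ch25h (0.86). Lyz2, the macrophage lysozyme, stood at 66151, 61145 and 63528 in NT and at 2159, 3274 and 2236 in KE, and like Stab1 it was tight in NT and highest in KE replicate 2. Clec4n, the fungal receptor dectin-2, stood at 595.1, 599.9 and 576.8 in NT and at 15.0, 34.5 and 9.04 in KE. These likenesses are descriptions over the same cultures in which Marco and Stab1 were chosen.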

How the data were processed

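RNA-Seq libraries (stranded mRNA kit, per the labels) of 3 KE and 3 NT astrocyte cultures were analysed, grouped by their treatment label. The authors deposited a normalized signal per gene and culture, which is gene counts from Salmon divided by size factors from DESeq2. Per the methods, reads were trimmed with Trim Galore and aligned with STAR to GRCm39, and the submitters' processing notes name GRCh38 instead. The values behave as mouse genes with Ensembl mouse identifiers. The methods mention a batch adjustment without naming batches, so none was modelled. Size factors take out depth and assume that the bulk of genes stays level. Depth was approximated from the steps between low values, of which 74.7% to 77.6% lay within 0.1 of a whole multiple, so whole reads were not recovered.

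From these values, limma 3.58.1 (R 4.3.3) was run on log2(normalized count + 1) with group as the factor and a trended variance, keeping genes whose mean reached 10, two-sided, with Benjamini-Hochberg adjustment and a threshold of 0.05. Fold changes on this scale understate those of low genes. An exact permutation test of 3 against 3 cultures cannot go below p = 0.1. Coordinates, transcripts and proteins came from Gencode vM39, and promoters from RefSeq (table build GRCm38.p6), placed on GRCm39 by an exact match of the sequence. Named genes were the 10 members and Braf, the 2 largest called rises and falls of each list, up to 3 abundant genes of each marker list, and the 5 genes nearest in profile to Marco and to Stab1. Values of some single genes of these lists are left out. The members and lists were chosen with earlier results of these data known. Alternatives were the pseudocount, the filter, 2 other scalings, no variance trend, the replicate number as a block, and leaving out each culture.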

Additional observations from a re-analysis of the deposited data

How the results depend on the processing

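Of 770 values recomputed under 14 alternatives, 725 moved by less than the limits set for them and 45 by more. These limits differed between lists. Without a variance trend, 7 apoptotic cell uptake genes were called lower against 10, a shift that stayed within its limit. The shift of 1 against 2 among astrocyte markers did not. The receptors were selected on this contrast, so their side of the threshold, which was as given in the report under all 14, is a description and supports nothing. With no filter on low genes Cd163 entered the fit and was not called. Across all genes, 6776 to 8046 were called against 7844, and 6776 to 7199 without single cultures. Log2FC ranges were -7.27 to -6.63 for Marco, -5.06 to -4.57 for Stab1, -4.79 to -4.40 for Mrc1 (lowest size with a pseudocount of 5) and -3.67 to -2.87 for Cd36. Without a variance trend, fewer genes were called lower among markers of astrocytes (1 against 2), fibroblasts and pericytes (1 against 2, and 1 against 3 higher) and oligodendrocyte lineage (3 against 5), and more among neurons (2 lower and 2 higher, against 1 each). With a mean of at least 50, 1 endothelial marker was called lower against 2. Leaving out single cultures gave 1 to 2 lower calls for astrocyte, endothelial and neuron markers, 3 to 5 for the oligodendrocyte lineage and 1 to 3 for fibroblasts and pericytes, whose higher calls were 1 to 2. The cause of these shifts was not tested, and the fit without a variance trend used the same genes and cultures as the main fit. The border-associated macrophage median of -3.13 became -1.44 with no filter on low genes. List medians changed sign in 2 lists. The median of other scavenger receptors, 0.10, became -0.25 with no filter on low genes, -0.02 without KE replicate 2 and -0.06 without NT replicate 1, and the fibroblast and pericyte median of -0.21 became 0.06 without NT replicate 2.

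Same-numbered KE and NT cultures deviated together only weakly (r = 0.0589, 0.0664 and 0.0651 across genes), although each correlated best with its own number, so the numbers were not taken as pairs. With the replicate block, 8046 genes were called against 7844. Among the tested receptors, depth limits Marco, Mrc1 and Cd36 most, since their KE values rest on 11 to 31 reads. The low values of KE replicate 2, the least deeply sequenced culture, are the least precise.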
